A study of Mus musculus with 16 samples.

Results

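The nuclear-encoded subunits of the mitochondrial respiratory chain were followed in kidneys of C57BL6 mice, given FAN or vehicle, that ate a high-fat diet at restricted times or ad libitum. FAN is the labels' abbreviation for the injury treatment; it is not spelled out there, although columns of the deposited table bear the word folic. The 4 groups were FAN time-restricted, FAN ad libitum, vehicle time-restricted and vehicle ad libitum, with 4 libraries each. All 16 kidneys came from mice on the high-fat diet and were taken at day 15 after treatment. RNA was extracted from 30 mg of frozen kidney powder, and 500 ng entered a stranded mRNA library. The age and sex of the animals, the hours of feeding and the dose are not given in the sources used here. Members were the rows of the count table whose symbol matched the names of complex I (Nduf), complex II (Sdha to Sdhd), complex III (Uqcr and Cyc1), cytochrome c (Cycs), complex IV (Cox) and complex V (Atp5) subunits. That gave 91 of 52338 rows, namely 40 of complex I, 4 of complex II, 9 of complex III, 1 of cytochrome c, 19 of complex IV and 18 of complex V. Another 14 rows with pseudogene symbols (-ps) were left out. Of the 91, 85 passed the filter on low counts and were tested among 17731 genes. Cox8c, Cox7b2, Ndufb11b, Ndufa11b, Ndufs6b and a second row named Atp5o did not. Ndufa4 and its relative Ndufa4l2 carry complex I names and are described with complex IV, the complex in which the Ndufa4 protein sits.

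The chain sits in the inner mitochondrial membrane. Complex I takes electrons from NADH and complex II takes them from succinate; both pass them through coenzyme Q to complex III, then through cytochrome c to complex IV, which hands them to oxygen. Complexes I, III and IV pump protons, and complex V (ATP synthase) uses the returning protons to make ATP. Most subunits are encoded in the nucleus and imported, while the remaining subunits of complexes I, III, IV and V are encoded in the mitochondrial genome. Cells of the kidney's proximal tubule are rich in mitochondria and depend on this pathway for the ATP that drives reabsorption.

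The libraries held 12450812 to 28255417 counts in FAN time-restricted, 19266923 to 33035197 in FAN ad libitum, 14124323 to 31699747 in vehicle time-restricted and 18788303 to 33976660 in vehicle ad libitum kidneys. Levels are CPM, counts relative to the library total, after scaling with the TMM method of edgeR. The limit that a count of 0 allows, 3 counts, corresponded to 0.0883 to 0.241 CPM on the library totals before TMM. TMM factors were 1.32 to 1.53 in FAN ad libitum libraries and 0.82 to 0.97 in the other 12, so the choice of scaling moves this group against the others. On the TMM scale the limit is therefore lower in FAN ad libitum libraries and higher in the other 12. The column names carry S numbers in 3 separate runs. FAN ad libitum libraries 6 and 7 and FAN time-restricted library 6 share the first run with vehicle libraries 1 and 2 of both regimens, vehicle libraries 3 and 4 form the second, and the other FAN libraries form the third. In FAN ad libitum kidneys, libraries 6 and 7 both lay below libraries 10 and 12 for 60 of the 85 tested subunits, which had a median exonic length of 728 bases. They both lay above for 8 subunits of longer transcripts (median 1638 bases), among them Atp5d, Cox5a, Ndufa10, Ndufa4l2, Ndufv1, Sdha and Uqcrc1. The first run holds a single FAN time-restricted library, whose spread is assumed to be that of the other groups. Within that run alone the median log2 change of the subunits was -1.65 for FAN with ad libitum feeding and -0.48 under time restriction. It was 1.38 between the FAN groups and 0.25 in vehicle. With the trend over transcript length removed from all 16 libraries, 78 subunits fell and 2 rose with ad libitum feeding (-0.98). Under time restriction 42 fell (-0.32), between the FAN groups 76 rose and 1 fell (0.81), and none was called in vehicle (0.13). Among all genes this correction gave 31.6% down and 29.6% up with ad libitum feeding and 23.0% down and 21.3% up under time restriction. Between the FAN groups it gave 18.4% up and 13.8% down. All other values come from the 16 libraries without that correction, unless stated.

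The summed level of the 91 subunits was 24254 ± 878 CPM in FAN time-restricted, 11425 ± 2236 in FAN ad libitum, 31446 ± 1762 in vehicle time-restricted and 28259 ± 1672 in vehicle ad libitum kidneys (SD, n = 4 each). FAN ad libitum kidneys thus held 40.4% of the level of vehicle ad libitum kidneys, FAN time-restricted kidneys held 77.1% of the level of vehicle time-restricted kidneys, and neither pair overlapped. FAN time-restricted kidneys stood at 212% of FAN ad libitum kidneys. The gaps were smaller as a share of all counts in a library, without TMM. The share was 2.23% in FAN time-restricted, 1.63% in FAN ad libitum, 2.69% in vehicle time-restricted and 2.499% in vehicle ad libitum kidneys, and FAN ad libitum kidneys were again lowest. These totals include counts of the mitochondrial genome, on average 24.9%, 10.3%, 19.8% and 20.3% in the same order, and so does the scaling by library totals used below. Of the counts outside that genome the subunits made up 2.96%, 1.82%, 3.35% and 3.14%. Every complex and cytochrome c was lowest in FAN ad libitum kidneys. For complex I the means were 6358, 2924, 8638 and 7815 CPM in FAN time-restricted, FAN ad libitum, vehicle time-restricted and vehicle ad libitum kidneys, for complex IV they were 4820, 2117, 5842 and 5223 CPM, and for complex V they were 8164, 4067, 10864 and 9648 CPM. FAN ad libitum kidneys held 37.4% of the vehicle ad libitum level for complex I, 42.3% for complex II, 40.8% for complex III, 44.3% for cytochrome c, 40.5% for complex IV and 42.2% for complex V, so the lowering ran through the whole chain. Under time restriction FAN kidneys held 73.6% of the vehicle level for complex I, 78.1% for II, 80.8% for III, 88.0% for cytochrome c, 82.5% for IV and 75.1% for V; only the cytochrome c values overlapped. In a bulk sample fewer cells of a type and less RNA per cell cannot be told apart.

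**Figure D1:**
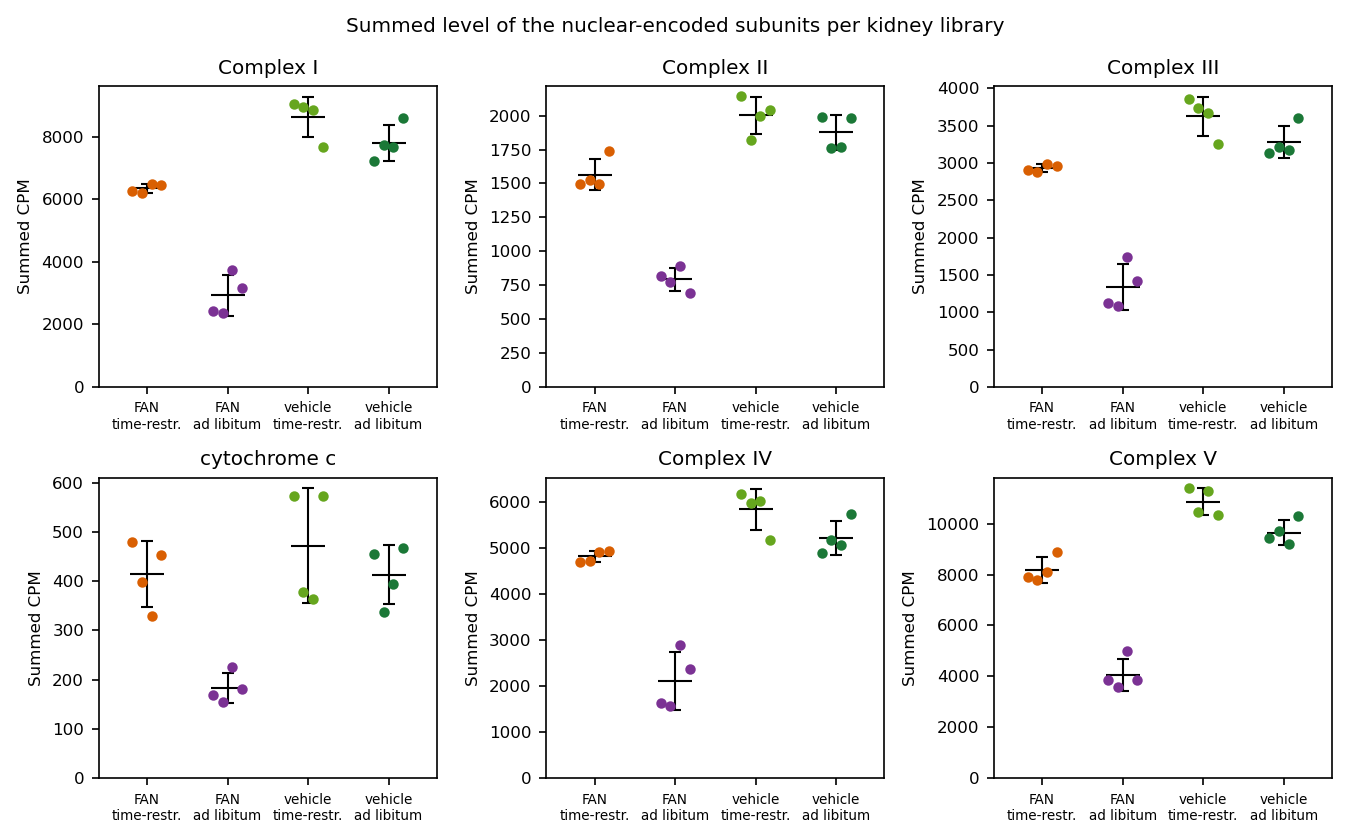
Summed CPM of the nuclear-encoded subunits of each complex (y axis) in each kidney library, by group (x axis); points are libraries and bars give the mean ± SD of 4 libraries. In each panel the 4 FAN ad libitum libraries are the lowest of the 16.

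**Figure D2:**
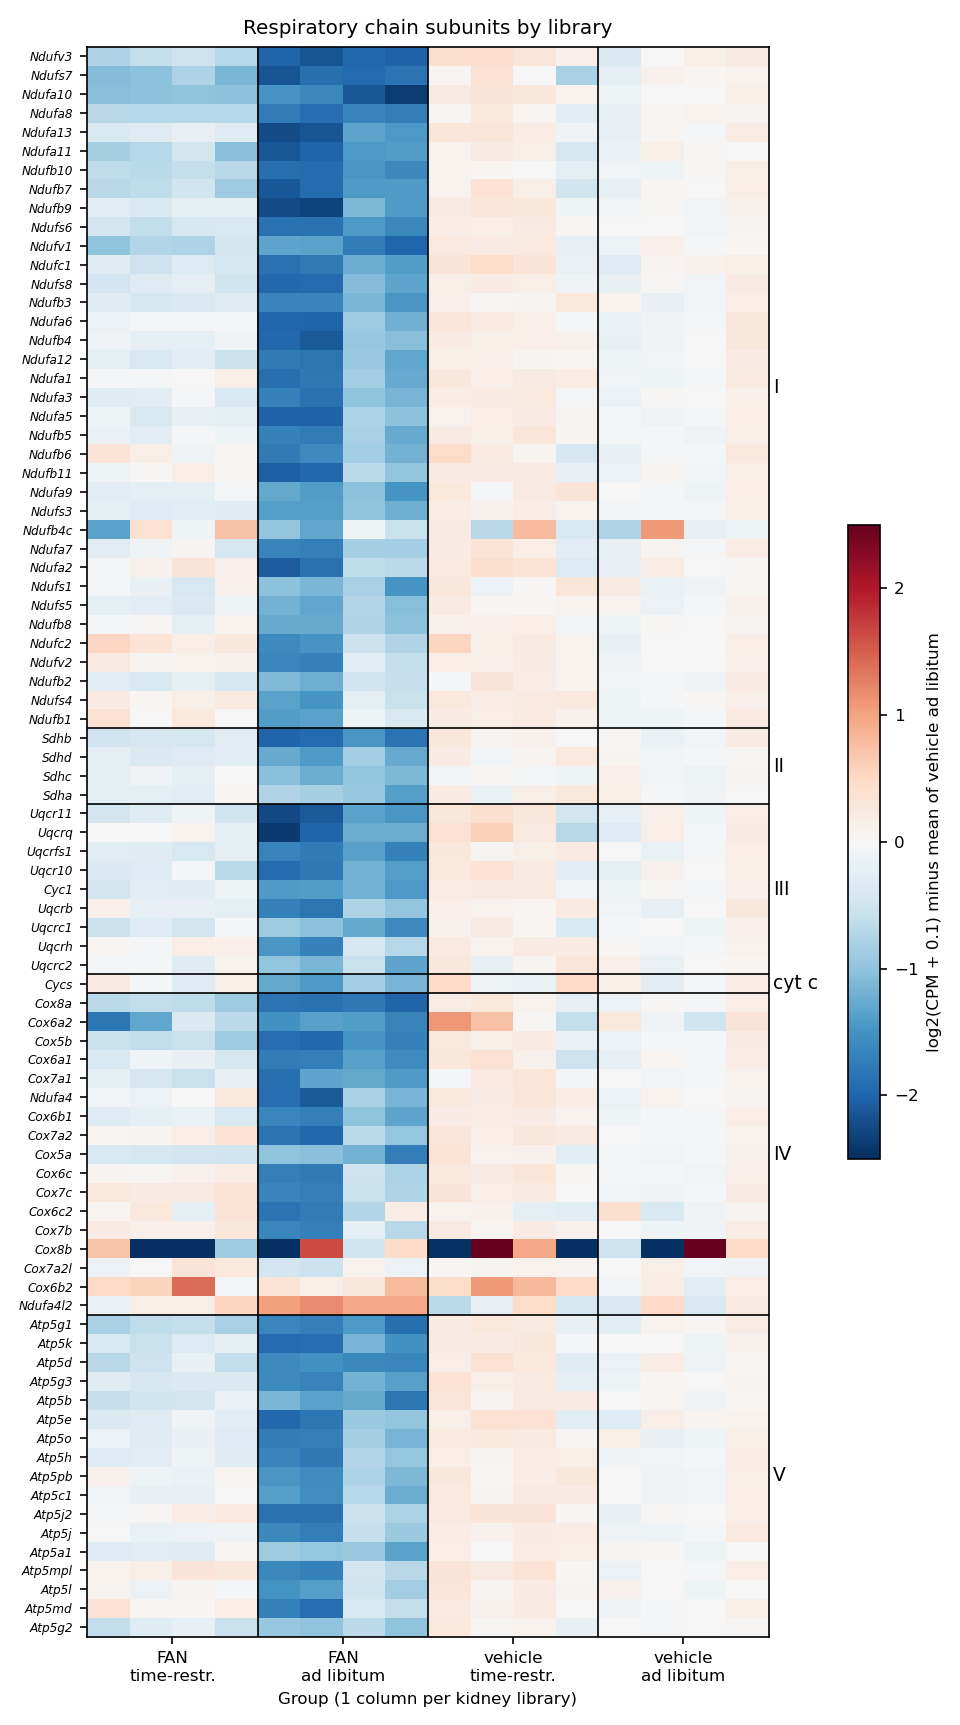
Level of 84 tested subunits (rows, by complex) in the 16 libraries (columns, by group), as log2(CPM + 0.1) minus the mean of the vehicle ad libitum libraries, with colours limited to ± 2.5. The FAN ad libitum columns are blue for nearly all rows, and Ndufa4l2 is the exception that passed the test in the other direction.

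Levels of different subunits were compared only per kilobase of exon. In vehicle ad libitum kidneys the highest were Atp5b (the catalytic beta subunit of ATP synthase) at 1323 CPM per kb, Cox6b1 at 1264, Cox8a at 1262 and Uqcrh (the hinge protein of complex III) at 1245 CPM per kb, levels that lie close together. In FAN ad libitum kidneys the same 4 stood at 510, 484, 342 and 633 CPM per kb.

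The first comparison asked how FAN changed the chain in mice fed ad libitum. Of the 85 subunits, 79 fell and 1 rose in FAN ad libitum against vehicle ad libitum kidneys (edgeR's quasi-likelihood test, Benjamini-Hochberg adjusted p under 0.05 over all genes tested), and the median log2 change was -1.29. Among all 17731 genes, 28.6% fell and 32.1% rose, with a median of 0.06; among the 3546 genes with the shortest transcripts, 41% fell and 17.2% rose. The groups did not overlap for the same number of subunits, 79 lower and 1 higher, against 25.9% of all genes lower and 29% higher. A log2 change of -1 or lower was measured for 72 subunits, and Ndufb4c and Cox6c2 were the members among them that missed the threshold. With the library totals as the only scaling the median of the subunits was -0.62 and that of all genes 0.76. The distance between them was -1.38, against -1.35 with TMM. A scaling moves all genes of a library alike, so this distance hardly depends on it and does not test the scaling. With library totals 62 subunits fell and 3 rose. All genes split into 61.04% up and 11.7% down under that scaling.

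Complex I had the lowest median, -1.39 on the log2 scale, and 36 of its 37 tested subunits fell. All 7 core subunits, which bind the flavin and iron-sulfur centres and carry the electrons, fell, as did all 29 accessory subunits. Ndufv3, an accessory subunit of the NADH-oxidising arm, showed the largest change among the subunits. Ndufv3 (GENCODE M21 on GRCm38, chr17:31520115-31531331, plus strand) had 180, 202, 215 and 188 CPM in FAN time-restricted kidneys, 76.5, 69.3, 78.5 and 75.3 CPM in FAN ad libitum kidneys, 405, 413, 380 and 338 CPM in vehicle time-restricted kidneys, and 240, 303.9, 342 and 361 CPM in vehicle ad libitum kidneys. No FAN library reached the lowest vehicle library, and FAN time-restricted and FAN ad libitum libraries did not overlap. Its log2 change in ad libitum kidneys was -2.06 ± 0.13 (SE; edgeR adjusted p = 6.81e-10). Ndufs7, an iron-sulfur subunit next to the quinone site, had 74.98, 78.0, 92.1 and 71.6 CPM in FAN time-restricted, 35.4, 42.5, 41.3 and 43.7 CPM in FAN ad libitum, 165, 203, 159 and 89.7 CPM in vehicle time-restricted, and 135, 170, 163 and 168 CPM in vehicle ad libitum kidneys, a log2 change of -1.963 ± 0.18 with ad libitum feeding (edgeR adjusted p = 4.79e-08). Its FAN time-restricted and vehicle time-restricted libraries overlapped through vehicle library 4. At the other end of complex I, Ndufb1 changed by -0.72, Ndufs4 by -0.81, Ndufb2 by -0.82 and the core subunit Ndufv2 by -0.92.

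All 4 subunits of complex II fell. Sdhb, the iron-sulfur subunit (chr4:140961203-140979193, plus strand), had 416, 440, 434 and 483 CPM in FAN time-restricted kidneys, 147, 152, 215 and 163 CPM in FAN ad libitum kidneys, 717, 615, 635 and 585 CPM in vehicle time-restricted kidneys, and 596, 523, 562 and 677 CPM in vehicle ad libitum kidneys. The FAN ad libitum libraries lay below every other library, and the FAN time-restricted libraries lay below every vehicle library. Sdhb changed by -1.80 ± 0.14 with ad libitum feeding (edgeR adjusted p = 5.57e-09), against -0.96 ± 0.15 for Sdha, the flavoprotein that oxidises succinate, -1.10 ± 0.11 for Sdhc and -1.18 ± 0.13 for Sdhd, the membrane anchors. Of these, Sdha (-0.26, adjusted p = 0.104) did not pass with library totals as the scaling.

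All 9 subunits of complex III fell, by a median of -1.36. Uqcrfs1, the Rieske iron-sulfur protein (chr13:30540308-30545362, minus strand), had 304.3, 297, 280 and 315 CPM in FAN time-restricted, 116, 108, 144 and 114 CPM in FAN ad libitum, 449, 386, 409 and 425 CPM in vehicle time-restricted, and 372, 329, 359 and 415 CPM in vehicle ad libitum kidneys. The FAN ad libitum libraries were the lowest, the FAN time-restricted ones came next, and none of them overlapped a vehicle library. Its log2 change was -1.61 ± 0.12 (edgeR adjusted p = 3.34e-09), and that of Cyc1, the haem subunit that reduces cytochrome c, was -1.36. The small accessory subunits Uqcr11 (-1.75) and Uqcrq (-1.65) changed more than the core proteins Uqcrc1 (-1.18) and Uqcrc2 (-0.97), a spread described here and not tested. Cycs, the mobile carrier between complexes III and IV, changed by -1.18 ± 0.18 (edgeR adjusted p = 2.19e-05).

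In complex IV, whose nuclear subunits surround a mitochondrially encoded catalytic core, all 10 ubiquitous subunits fell. Cox8a (chr19:7215153-7217616, minus strand) had 433, 450, 443 and 372 CPM in FAN time-restricted, 192, 190, 200 and 172 CPM in FAN ad libitum, 786, 833, 740 and 598 CPM in vehicle time-restricted, and 623, 708, 672 and 773 CPM in vehicle ad libitum kidneys. As with Sdhb, the FAN libraries lay below every vehicle library and the FAN groups did not overlap. Cox8a changed by -1.88 ± 0.13 (edgeR adjusted p = 1.56e-09), Cox5b by -1.75 and Cox6b1 by -1.39, while Cox7b (-0.94) changed least among the ubiquitous subunits. In complex V all 17 tested subunits fell, by a median of -1.21, among them the 5 subunits of the F1 head that make ATP, the 4 of the peripheral stalk, the 3 genes for the c ring and the 5 small membrane subunits. Atp5b (chr10:128083273-128090391, plus strand) had 1709, 1791, 1834 and 2254 CPM in FAN time-restricted, 1140, 1008, 1039 and 723 CPM in FAN ad libitum, 3128, 2673, 2978 and 2917 CPM in vehicle time-restricted, and 2538, 2614, 2369 and 2617 CPM in vehicle ad libitum kidneys. The 4 groups were separate for this gene. Its log2 change was -1.37 ± 0.15 (edgeR adjusted p = 4.13e-07), and Atp5g1 (-1.67), Atp5d (-1.60) and Atp5k (-1.60) changed most within the complex. With library totals as the scaling, Atp5mpl (-0.34), Atp5j2 (-0.47), Atp5g2 (-0.21) and Uqcrh (-0.30) kept their sign and did not pass.

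The stretches around gene starts were searched for binding motifs known from genes of the respiratory chain, since most members moved together. RefSeq windows on GRCm38.p6, from 250 bases before to 50 after the start of a gene, were matched for 71 of the 91 members and for 27025 genes in all, and both strands were read. The letters GCGCATGCG, the core of the motif of the regulator Nrf1, were in the windows of 9 members (12.7%, against 1.95% of all genes), namely Atp5g2, Atp5k, Atp5l, Cox6a1, Cycs, Ndufa11, Ndufa8, Uqcr11 and Uqcrc1. This motif overlaps its own reverse complement, so that a run of 10 bases can hold a match on each strand. The letters AAGATGGCG of Yy1 were in those of 7 members (9.86%, against 1.64%), namely Atp5j, Atp5j2, Ndufa9, Ndufc1, Ndufs4, Ndufs6 and Ndufs7. CCGGAAG of the Ets family, to which Gabpa belongs, was in 17 (23.9%, against 9.93%), and AAGGTCA, bound by the receptor Esrra, in 8 (11.3%, against 5.38%). A match is a description of letters and not of binding. The 27025 genes were not limited to genes expressed in these kidneys, so the shares come from unlike sets. A link between the letters and the changes was not tested. The 100 bases directly before the start are shown for 5 members with a match there, among them Cycs, the carrier itself, and both a strongly lowered member (Ndufa8) and the least lowered gene of the c ring (Atp5g2). Capitals mark the Nrf1 letters in the first 4 and the Yy1 letters in Atp5j, whose ccggaag further on matches the Ets letters. The stretches, in the order shown, are chr6:50566570-50566669 (minus strand), chr2:36049339-36049438 (minus strand), chr17:56717662-56717761 (plus strand), chr15:102671048-102671147 (minus strand) and chr16:84834977-84835076 (minus strand), and each is written 5′ to 3′ along the gene.
Cycs: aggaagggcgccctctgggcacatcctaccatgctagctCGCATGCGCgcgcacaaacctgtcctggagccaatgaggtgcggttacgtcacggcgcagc
Ndufa8: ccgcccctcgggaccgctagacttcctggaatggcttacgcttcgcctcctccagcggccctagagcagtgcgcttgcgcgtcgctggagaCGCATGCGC
Ndufa11: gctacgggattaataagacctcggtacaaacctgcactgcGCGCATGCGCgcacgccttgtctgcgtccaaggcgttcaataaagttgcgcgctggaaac
Atp5g2: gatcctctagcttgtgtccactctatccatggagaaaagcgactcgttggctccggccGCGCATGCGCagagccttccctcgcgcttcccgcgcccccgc
Atp5j: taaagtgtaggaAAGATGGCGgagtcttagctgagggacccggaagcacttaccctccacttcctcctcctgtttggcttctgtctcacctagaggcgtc
The members with the Nrf1 letters were spread over much of the range of changes: with ad libitum feeding Ndufa8 changed by -1.76, Uqcr11 by -1.75, Ndufa11 by -1.72, Cox6a1 and Atp5k by -1.60 each, Cycs and Uqcrc1 by -1.18 each, Atp5l by -1.01 and Atp5g2 by -0.91. Atp5j, with the Yy1 letters, changed by -1.14.

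The second comparison asked the same of mice on time-restricted feeding. Here 38 of 85 subunits fell, none rose and 47 did not pass, with a median log2 change of -0.38 (edgeR's quasi-likelihood test, adjusted p under 0.05), against 19% of all genes down, 24.5% up and a median of 0.05. The groups did not overlap for 41 subunits, all lower, against 17.9% of all genes lower and 22.4% higher. Among the genes with the shortest transcripts 21.6% fell and 14.8% rose. With library totals as the scaling 31 subunits fell, the median was -0.27 and that of all genes 0.16, with 28.5% of all genes up and 13.9% down. The calls were spread over 20 subunits of complex I, 2 of complex II, 3 of complex III, 6 of complex IV and 7 of complex V. Both catalytic subunits of complex III, Uqcrfs1 (-0.48) and Cyc1 (-0.43), fell, and its core proteins Uqcrc1 (-0.35) and Uqcrc2 (-0.20) did not pass. This comparison shares no library with the first, although 1 estimate of the spread serves both.

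Ndufa10, an accessory subunit of the matrix side of complex I (chr1:92439010-92473860, minus strand), showed the largest change under time restriction among subunits above 5 CPM. Ndufa10 had 183, 188, 192 and 190 CPM in FAN time-restricted, 138, 125, 88.4 and 73.8 CPM in FAN ad libitum, 448, 479, 467 and 405 CPM in vehicle time-restricted, and 351, 382, 380 and 427 CPM in vehicle ad libitum kidneys. Every FAN library lay below every vehicle library. Its log2 change was -1.26 ± 0.16 under time restriction (edgeR adjusted p = 6.19e-06) and -1.86 ± 0.16 with ad libitum feeding (adjusted p = 2.27e-08). Ndufv3 (-0.97, adjusted p = 1.03e-05), Ndufs7 (-0.96, adjusted p = 0.000292), Ndufv1 (-0.86), the flavin-binding core subunit, Atp5g1 (-0.85, adjusted p = 8.04e-05), Cox8a (-0.80, adjusted p = 6.91e-05), Cox5b (-0.76), Atp5d (-0.64), Atp5b (-0.62, adjusted p = 0.00265), Sdhb (-0.52, adjusted p = 0.00453) and Sdhd (-0.42) also fell. Ndufa13 (-0.49, adjusted p = 0.0353) and Uqcr10 (-0.50, adjusted p = 0.0287) lost the call without any of 6 single libraries: without FAN time-restricted library 6, 10 or 12, or vehicle time-restricted library 1, 2 or 3, the adjusted p was 0.0639 to 0.0859 for Ndufa13 and 0.0559 to 0.0911 for Uqcr10.

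For other subunits the FAN and vehicle libraries were close under time restriction. Ndufb6, a membrane-arm subunit of complex I, had 72.5, 63.4, 53.5 and 58.7 CPM in FAN time-restricted, 16.7, 19.0, 31.7 and 25.01 CPM in FAN ad libitum, 78.5, 68.1, 59.8 and 42.4 CPM in vehicle time-restricted, and 50.2, 55.0, 55.9 and 68.7 CPM in vehicle ad libitum kidneys. Its FAN time-restricted values lay within the range of the vehicle time-restricted ones, and the log2 difference was -0.01 with a 95% interval of -0.41 to 0.40. Cox7c differed by 0.09 (-0.34 to 0.51), Ndufc2 by 0.08 (-0.33 to 0.48) and Sdhc by -0.09 (-0.31 to 0.13). These intervals leave out differences of the size seen with ad libitum feeding, and they leave in smaller ones.

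The third comparison set time-restricted against ad libitum feeding within FAN. In FAN time-restricted kidneys 78 of 85 subunits rose and 1 fell against FAN ad libitum kidneys, with a median log2 change of 1.08 (edgeR's quasi-likelihood test), against 17.9% of all genes up, 13.9% down and a median of -0.02. Among the genes with the shortest transcripts 28.8% rose and 3.38% fell. The groups did not overlap for 78 subunits higher and 1 lower, against 15.7% of all genes higher and 12.3% lower. The call covered 36 of 37 subunits of complex I, all of II, III and V, Cycs and 11 of 17 of complex IV. With library totals as the scaling the median was 0.45 and that of all genes -0.67, 57 subunits rose, and Atp5g2 and Ndufb2 (both -0.14) turned sign; all genes then split into 5.58% up and 59.3% down. Since this comparison and the first share the FAN ad libitum libraries, their changes are not independent.

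Uqcrq, a small subunit of complex III next to cytochrome b (chr11:53427922-53430831, minus strand), differed most. Uqcrq had 223, 223, 235 and 189 CPM in FAN time-restricted, 42.0, 55.0, 93.7 and 93.1 CPM in FAN ad libitum, 288, 334, 257 and 136 CPM in vehicle time-restricted, and 177, 248, 212 and 255 CPM in vehicle ad libitum kidneys. The FAN time-restricted libraries lay within the range of both vehicle groups and above every FAN ad libitum library. The log2 change between the FAN groups was 1.62 ± 0.26 (edgeR adjusted p = 0.000173). Cox7a2 (1.44), Ndufa4 (1.43), Ndufb6 (1.43), Ndufa13 (1.42), Uqcr11 (1.40), Sdhb (1.39), Ndufv3 (1.39), Atp5j2 (1.25) and Atp5mpl (1.22) rose with it. Cox7a2 had 503, 507, 547 and 629 CPM in FAN time-restricted, 134, 124, 303.1 and 247 CPM in FAN ad libitum, 601, 544, 587 and 565 CPM in vehicle time-restricted, and 479, 477, 471 and 515 CPM in vehicle ad libitum kidneys. The FAN ad libitum libraries of the first run were the lowest pair of this gene, and FAN time-restricted libraries overlapped both vehicle groups. The smallest changes among the called subunits were those of Ndufb2 (0.49) and Atp5g2 (0.50), and Sdha and Ndufa10 changed by 0.78 and 0.82. Sdha and Ndufa10 were not called with library totals (0.13, adjusted p = 0.413, and 0.17, adjusted p = 0.377) or within the first run (0.51, adjusted p = 0.116, and 0.45, adjusted p = 0.0796), and neither were Atp5g2 (0.34, adjusted p = 0.152) and Atp5b (0.64, adjusted p = 0.0619) within the first run.

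In vehicle mice no subunit passed the test between time-restricted and ad libitum feeding, and neither did any of the 17731 genes (0%; edgeR's quasi-likelihood test). At an unadjusted p under 0.05 there were 2 subunits and 1143 genes, and DESeq2 called none of the subunits. The median log2 change of the subunits was 0.14, and 79 of 85 were positive; for the same sign no test was made, as the subunits are not independent. Time-restricted libraries lay above all ad libitum libraries for 7 subunits, among them Ndufs4, Atp5b, Ndufa4, Cox7a2, Cox6b2 and Uqcrh, and none lay below, against 2.85% of all genes higher and 2% lower. The 3 subunits with the smallest p were Cox6b2 (0.73 ± 0.25, adjusted p = 0.597), Ndufv3 (0.30 ± 0.13, adjusted p = 0.73) and Ndufa9 (0.20 ± 0.12, adjusted p = 0.88).

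The interaction asked whether FAN changed the chain to a different extent under the 2 regimens. For 63 of 85 subunits the FAN change was less negative under time restriction than with ad libitum feeding, and for none was it more negative (edgeR's quasi-likelihood test of the difference), with a median difference of 0.97 on the log2 scale; among all genes 7.76% were called in that direction and 1.4% in the other, and among those with the shortest transcripts 13.7% and 0.169%. All 4 subunits of complex II, 8 of 9 of complex III, Cycs, 29 of 37 of complex I, 10 of 17 of complex IV and 11 of 17 of complex V were called. The smallest p belonged to Uqcrfs1 (1.13 ± 0.17, adjusted p = 0.000292), Sdhc (1.01 ± 0.15, adjusted p = 0.000344), Sdhb (1.28 ± 0.19, adjusted p = 0.000381), Ndufs6 (1.05 ± 0.16), Ndufb10 (1.08 ± 0.18), Ndufa8 (1.02 ± 0.17), Ndufv3 (1.09 ± 0.18) and Cox8a (1.08 ± 0.18). Of these, Ndufv3 (0.68, adjusted p = 0.1003) was not called within the first run, Ndufa8 (0.43, adjusted p = 0.0538) with library totals, nor Cox8a (0.61, adjusted p = 0.118) with the length trend removed. Uqcrq had the largest difference (1.43 ± 0.36, adjusted p = 0.0181). Ndufa10 (0.60, adjusted p = 0.102), Ndufv1 (0.71, adjusted p = 0.0546) and Uqcrh (0.87, adjusted p = 0.0645) did not pass. Ndufa10 therefore fell under both regimens without a called difference between them. With library totals as the scaling 12 subunits were called higher and 2 lower, with 2.84% of all genes up and 34.6% down. The median difference was then 0.39 and that of all genes -0.57. The distance of the subunits from all genes was 0.96, against 0.95 with TMM, and again does not test the scaling. Within the first run of S numbers, which holds a single FAN time-restricted library, the median difference was 1.16. With the length trend removed 46 subunits were called higher, against 6.65% of all genes higher and 0.914% lower. The calls of Sdha (0.66, adjusted p = 0.0497), Atp5mpl (0.99, adjusted p = 0.0413) and Atp5b (0.75, adjusted p = 0.0317) were lost without 14, 14 and 7 of the 16 single libraries in turn, at values of 0.55 to 0.72, 0.82 to 1.04 and 0.66 to 0.76.

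**Figure D3:**
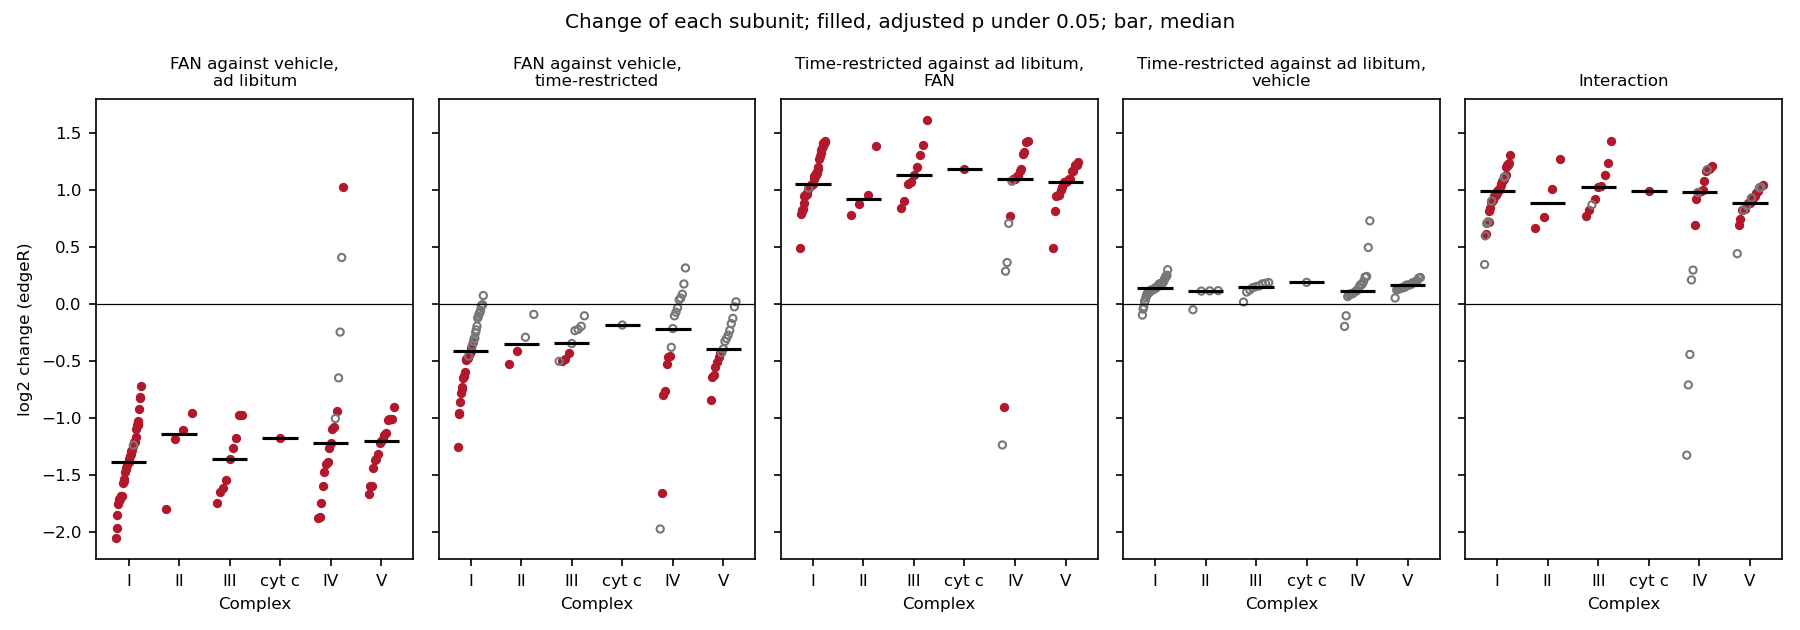
Log2 change of each tested subunit (y axis) by complex (x axis) in the 4 comparisons and the interaction; filled points passed an adjusted p of 0.05 and bars are medians. Nearly all points lie below 0 for FAN against vehicle with ad libitum feeding, closer to 0 under time restriction, above 0 for time restriction in FAN, and near 0 for time restriction in vehicle.

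Several complex IV subunits exist as variants of different tissues, and these behaved less alike. Cox7a1, known from heart and skeletal muscle, fell in both FAN comparisons, with 13.9 ± 1.59 CPM in FAN time-restricted, 6.39 ± 1.16 in FAN ad libitum, 19.2 ± 2.48 in vehicle time-restricted and 17.7 ± 0.894 in vehicle ad libitum kidneys (SD, n = 4 each), log2 changes of -1.47 with ad libitum feeding and -0.47 under time restriction (edgeR adjusted p = 1.03e-07 and 0.0131). Its call under time restriction was lost without vehicle time-restricted library 3 (-0.40, adjusted p = 0.0507), within the first run (-0.42, adjusted p = 0.248) and with the runs as a covariate (-0.50, adjusted p = 0.0733). Per kilobase, Cox7a1 made up 4.11%, 5.59%, 5.31% and 5.76% of the Cox7a1 and Cox7a2 sum in FAN time-restricted, FAN ad libitum, vehicle time-restricted and vehicle ad libitum kidneys. Cox6a2, another muscle variant, was near the detection limit, at 0.156 to 0.589 CPM in FAN time-restricted, 0.181 to 0.246 in FAN ad libitum, 0.489 to 1.78 in vehicle time-restricted and 0.527 to 1.01 in vehicle ad libitum kidneys, and it fell in both FAN comparisons (-1.87 and -1.66). It overlaps Itgad, which was at or under 0.0347 CPM on average in each group. Cox6b2, known from testis, had 8.92 ± 3.97, 7.37 ± 1.56, 9.18 ± 1.91 and 5.55 ± 0.838 CPM in FAN time-restricted, FAN ad libitum, vehicle time-restricted and vehicle ad libitum kidneys and passed no test, although with the length trend removed its difference with ad libitum feeding was 0.97 and passed (adjusted p = 0.00096), while Cox8c and Cox7b2 had 1 count each in all libraries. Cox8b, known from muscle and brown fat, ranged from 0 to 3.85 CPM in FAN time-restricted, 0 to 7.34 in FAN ad libitum, 0.163 to 14.9 in vehicle time-restricted and 0.315 to 14.4 in vehicle ad libitum kidneys and passed no test. The summed level of 5 adipocyte markers ranged just as widely, from 0.196 to 21.7, 0.105 to 67.8, 0.978 to 147 and 2.77 to 83.0 CPM in the same groups; its part in the Cox8b values was not tested.

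Ndufa4l2 moved against the other subunits. This relative of Ndufa4, induced by hypoxia in several cell types, lies on chr10:127514967-127517154 (plus strand). Ndufa4l2 had 1.28, 1.62, 1.61 and 2.14 CPM in FAN time-restricted, 3.04, 3.40, 2.92 and 2.91 CPM in FAN ad libitum, 0.889, 1.24, 2.02 and 1.06 CPM in vehicle time-restricted, and 1.11, 2.10, 1.10 and 1.70 CPM in vehicle ad libitum kidneys. Each FAN ad libitum library lay above all other libraries, at a low level. It rose by 1.03 ± 0.27 in FAN ad libitum against vehicle ad libitum kidneys (edgeR adjusted p = 0.00318) and fell by 0.91 on the log2 scale in FAN time-restricted against FAN ad libitum kidneys (adjusted p = 0.017), while the interaction (-0.71, adjusted p = 0.291) did not pass. The fall was not called without FAN time-restricted library 6 (-0.79, adjusted p = 0.0612). Within the first run neither the rise (0.97, adjusted p = 0.0586, with 2 libraries a group) nor the fall (-1.35, adjusted p = 0.0755, with 1 FAN time-restricted library against 2) was called. The gene overlaps Shmt2 on the opposite strand, and the strand setting of the counting is not given in the sources used here. Shmt2 averaged 109, 53.4, 234 and 237 CPM in FAN time-restricted, FAN ad libitum, vehicle time-restricted and vehicle ad libitum kidneys and so moved the other way in FAN ad libitum kidneys (-2.15). Of the members as a whole, 31 overlap an exon of another gene, 27 of them on the opposite strand. Per kilobase, Ndufa4l2 was 1.02% of the sum of Ndufa4 and Ndufa4l2 in FAN ad libitum kidneys and 0.178%, 0.120% and 0.163% in FAN time-restricted, vehicle time-restricted and vehicle ad libitum kidneys.

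Cox7a2l, a factor linked to the joining of complexes III and IV into supercomplexes, was the highly expressed member whose test did not pass in any comparison. Its protein and its allele in these mice were not examined. Cox7a2l had 145, 163, 201.4 and 192 CPM in FAN time-restricted, 115, 112, 172 and 146 CPM in FAN ad libitum, 166, 169, 171 and 169 CPM in vehicle time-restricted, and 162, 179, 153 and 152 CPM in vehicle ad libitum kidneys. The groups overlapped. Its log2 difference was -0.25 (95% interval -0.54 to 0.04, edgeR adjusted p = 0.133) with ad libitum feeding, 0.05 (-0.24 to 0.34) under time restriction, and 0.37 (0.07 to 0.66, adjusted p = 0.0521) between the FAN groups; with library totals as the scaling, the first and last turned sign (0.44 and -0.27). The remaining members that did not pass with ad libitum feeding were Cox8b, Cox6b2 and the gene copies Cox6c2 (0.372 to 0.783 CPM over the group means) and Ndufb4c (0.182 to 0.403 CPM); the copies fall outside the rule for named genes and were named after their values were seen.

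The 3 genes for the c ring encode the same mature protein with different leader peptides, and they did not change equally. Atp5g1 changed by -1.67 ± 0.14 with ad libitum feeding and -0.85 ± 0.14 under time restriction, Atp5g3 by -1.44 ± 0.14 and -0.51 ± 0.14, and Atp5g2 by -0.91 ± 0.12 and -0.46 ± 0.12, each with an edgeR adjusted p of at most 0.00553. Atp5g2 had 56.0, 69.0, 74.2 and 58.0 CPM in FAN time-restricted, 44.0, 42.7, 53.4 and 42.4 CPM in FAN ad libitum, 102.5, 86.7, 90.5 and 74.95 CPM in vehicle time-restricted, and 85.0, 83.2, 86.2 and 87.5 CPM in vehicle ad libitum kidneys. All FAN libraries lay below all vehicle libraries, and the FAN groups did not overlap. Its interaction (0.44, adjusted p = 0.111) did not pass, while those of Atp5g1 (0.82, adjusted p = 0.0109) and Atp5g3 (0.94, adjusted p = 0.00421) did. Differences between the genes were not tested.

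**Figure D4:**
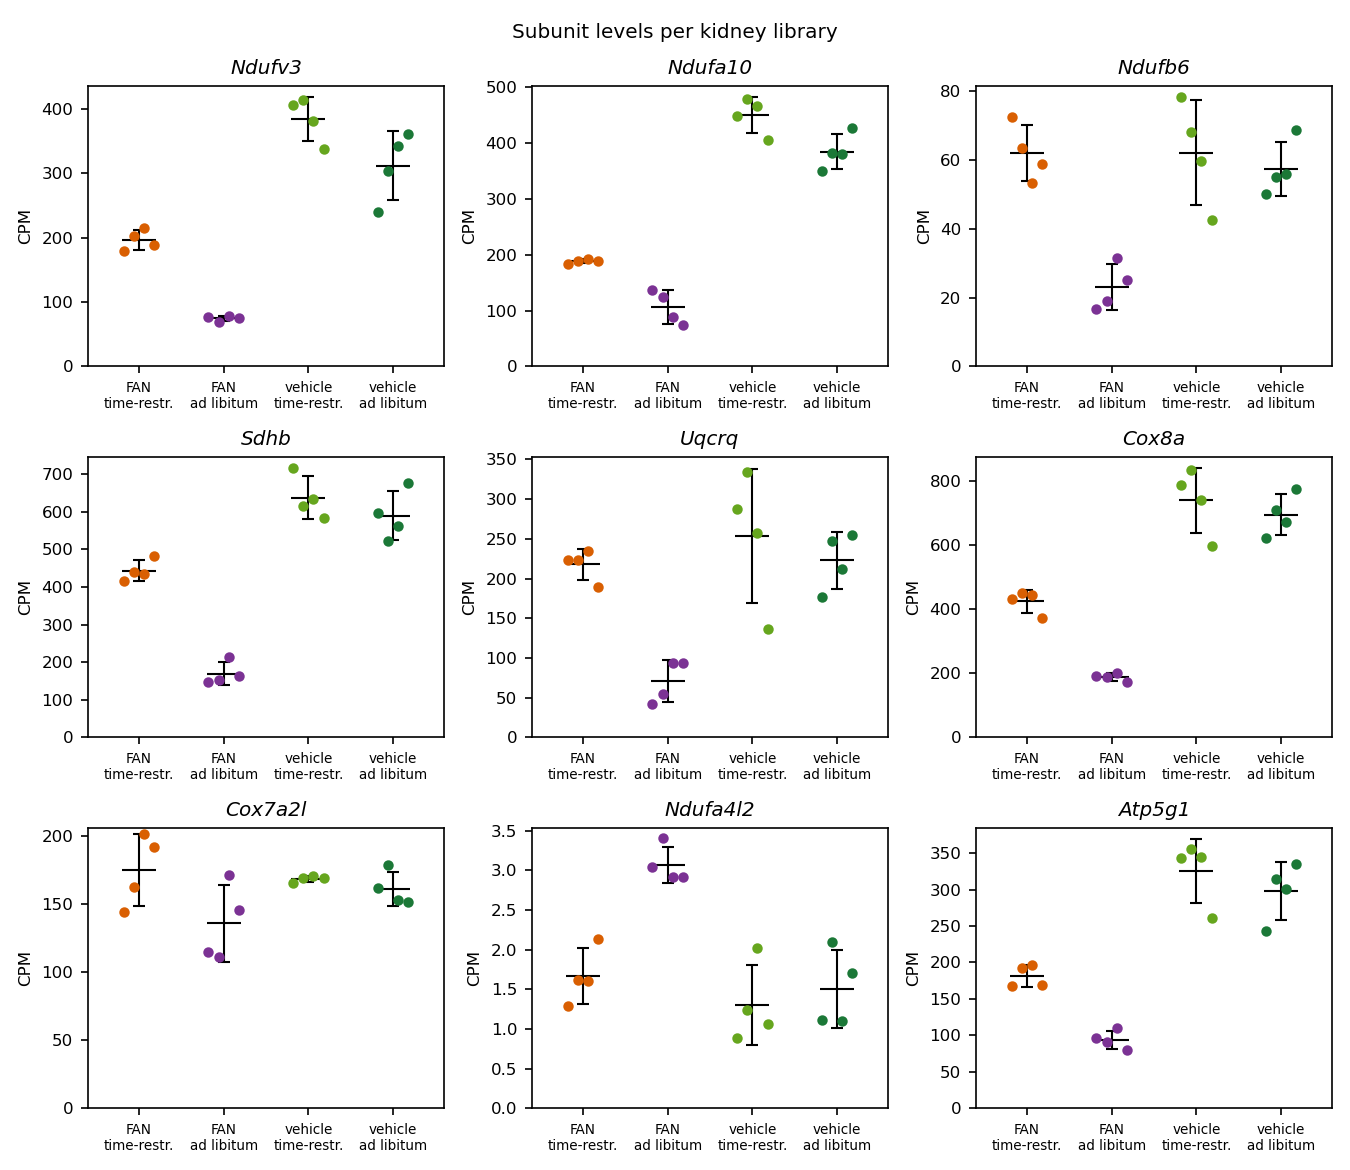
CPM per library (y axis) of 9 subunits by group (x axis), with the mean ± SD of 4 libraries. FAN ad libitum libraries are the lowest for Ndufv3, Ndufa10, Ndufb6, Sdhb, Uqcrq, Cox8a and Atp5g1, overlap the other groups for Cox7a2l, and are the highest for Ndufa4l2.

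The 13 subunits of the mitochondrial genome were set beside the nuclear ones. Their summed level was 266372, 71191, 229089 and 221852 CPM in FAN time-restricted, FAN ad libitum, vehicle time-restricted and vehicle ad libitum kidneys. All 13 fell in FAN ad libitum against vehicle ad libitum kidneys (median -1.84) and all 13 rose in FAN time-restricted against FAN ad libitum kidneys (median 2.03), by edgeR's test. Among all genes 28.6% fell in the former comparison and 17.9% rose in the latter. In FAN time-restricted against vehicle time-restricted kidneys none was called, against 24.5% of all genes up and 19% down. The median was 0.28 there, where the nuclear subunits had a median of -0.38. The ratio of the mitochondrial to the nuclear sum was 10.98 ± 1.48 in FAN time-restricted, 6.04 ± 1.41 in FAN ad libitum, 7.28 ± 0.60 in vehicle time-restricted and 7.85 ± 0.87 in vehicle ad libitum kidneys (SD, n = 4 each). The FAN time-restricted range (8.77 to 11.9) lay above every other library, including the FAN ad libitum range of 4.71 to 7.54. mt-Cytb, cytochrome b of complex III, changed by -1.78 with ad libitum feeding, 0.18 under time restriction and 1.88 between the FAN groups, and mt-Co1, the catalytic subunit of complex IV, by -1.27, 0.40 and 1.68. With library totals as the scaling, 12 of the 13 fell with ad libitum feeding (median -1.16), against 11.7% of all genes. All 13 then rose between the FAN groups (median 1.40), against 5.58% of all genes.

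**Figure D5:**
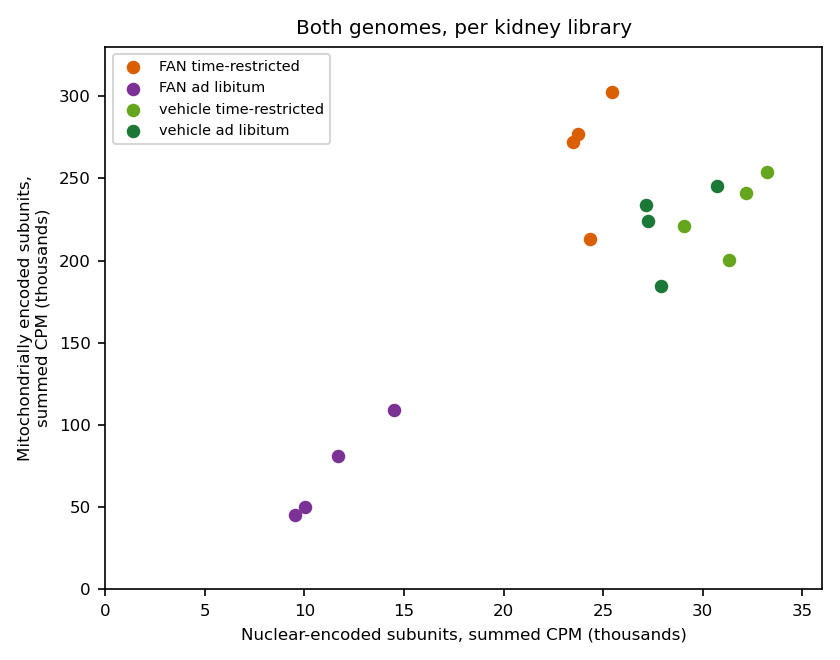
Summed CPM of the nuclear-encoded subunits (x axis, in units of 1000 CPM) against that of the 13 mitochondrially encoded subunits (y axis, in units of 1000 CPM) in each library, by group. FAN ad libitum libraries sit at the lower left, and FAN time-restricted libraries sit left of the vehicle libraries at similar or higher y values.

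Genes that build, supply and regulate the chain were examined as lists; among all genes tested 28.6% fell with ad libitum feeding, 19% fell under time restriction and 17.9% rose between the FAN groups. Of 44 tested assembly factors, 40 fell with ad libitum feeding (median -0.94) and 21 under time restriction (median -0.34), and 33 rose between the FAN groups (median 0.62). Sdhaf1, which inserts iron-sulfur clusters into complex II, changed by -2.14, -1.11 and 1.17 in these comparisons, Ecsit of complex I assembly by -2.0, -1.09 and 0.89, and Coa6 of complex IV assembly by -1.47, -0.14 (not called) and 1.53. Cox17, a copper chaperone, was not called (0.24, -0.09 and -0.23), and Bcs1l, which inserts the Rieske protein, was called in both FAN comparisons (-1.05 and -0.86) and not between the FAN groups (0.14). With library totals as the scaling the medians were -0.26, -0.23 and -0.02, and those of all genes 0.76, 0.16 and -0.67. All genes then split into 61.04% up and 11.7% down, 28.5% up and 13.9% down, and 5.58% up and 59.3% down. The assembly factor calls were 15 down and 4 up, 18 down, and 3 up and 12 down. Of the 40 called down 9 turned sign, and of the 33 called up 13 did. Of 13 coenzyme Q genes, 12, 10 and 10 were called in the same directions (medians -1.12, -0.57 and 0.75), among them the atypical kinase Coq8a (-1.94, -0.89 and 1.22), while Coq8b was not called (0.34, 0.03 and -0.26). With library totals 9 fell and 1 rose with ad libitum feeding, 10 fell under time restriction and 4 rose and 2 fell between the FAN groups, where 3 of the 10 turned sign.

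Of 21 genes of import and membrane organisation, 20 fell with ad libitum feeding (median -0.79) and 13 under time restriction (median -0.37). Between the FAN groups 18 rose (median 0.58). But with library totals 8 fell and 1 rose, 11 fell, and 3 rose and 2 fell, and 6 of the 20 and 10 of the 18 turned sign. Among all genes that scaling gave 61.04% up and 11.7% down, 28.5% up and 13.9% down, and 5.58% up and 59.3% down. Phb, prohibitin, changed by -1.54, -0.75 and 0.82, and Mfn2, a fusion protein of the outer membrane, by -0.60, -0.84 and -0.24 (not called), the first turning sign with library totals. Of 9 turnover genes, 7 fell with ad libitum feeding, 5 fell and Yme1l1 rose (0.48) under time restriction, and 7 rose between the FAN groups; with library totals 5 fell and 3 rose, 4 fell and 2 rose, and 2 rose and 1 fell, and 2 of the first 7 and 4 of the last 7 turned sign. Among them the kinase Pink1 changed by -1.72, -0.57 and 1.25, and Bnip3, a mitophagy receptor, by -1.35, 0.07 (not called) and 1.51. The 13 regulators were called in both directions, with 3 up and 6 down, 2 up and 4 down, and 4 up and 2 down, but with library totals the calls were 6 up and 1 down, 4 up and 3 down, and 0 up and 10 down. With that scaling Tfam, Tfb1m and Tfb2m turned sign with ad libitum feeding, and Esrra, Tfam and Yy1 did so between the FAN groups. Esrra, the oestrogen-related receptor that drives many genes of the chain, changed by -1.27, -0.67 and 0.47, and its coactivator Ppargc1b by -0.73, -0.79 and -0.05 (not called). Ppargc1a was not called (-0.30, -0.28 and 0.11), nor was Nrf1 (0.23, 0.24 and -0.23), and Pprc1, a related coactivator, changed by 1.12, 0.33 (not called) and -0.93. The 3 subunit genes that the name pattern misses behaved in part like the members: Cox4i1 changed by -1.19, -0.14 (not called) and 1.05, Ndufab1 by -1.18, -0.40 and 0.77, and Cox4i2, at 0.45 to 0.94 CPM, was not called.

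Markers of some kidney cell types moved between the same groups. All 12 proximal tubule markers were detected; 10 fell in each FAN comparison and 10 rose between the FAN groups, and their summed level was 8846 to 10706 CPM in FAN time-restricted, 2450 to 4590 in FAN ad libitum, 17386 to 19501 in vehicle time-restricted and 16733 to 19114 in vehicle ad libitum kidneys. The 6 macrophage and dendritic markers summed to 268 to 460, 646 to 743, 67.0 to 93.0 and 89.1 to 136 CPM in these groups, and the 5 markers of tubule injury to 407 to 904, 879 to 1281, 14.7 to 44.6 and 18.1 to 35.7 CPM. In FAN kidneys all 6 macrophage markers rose with ad libitum feeding and 5 rose under time restriction, and all 5 injury markers rose under both regimens. Between the FAN groups all 6 macrophage markers fell. Of the 5 injury markers 1 was called lower there, with changes from -1.58 (Lcn2) to -0.27 (Vcam1). With library totals 7 proximal tubule markers rose, and 6 macrophage and 4 injury markers fell, between the FAN groups. Among all genes 32.1% rose and 28.6% fell with ad libitum feeding, and 17.9% rose and 13.9% fell between the FAN groups. Scaling by library totals made these shares 61.04% and 11.7%, and 5.58% and 59.3%. With ad libitum feeding 2 of 6 thick ascending limb, 2 of 5 principal cell and 4 of 5 intercalated cell markers fell. Of 5 endothelial markers 1 rose. Between the FAN groups 2, 0, 2 and 0 markers of these cell types rose. With library totals the calls with ad libitum feeding were 3 up and 2 down, 2 up and 2 down, 1 up and 2 down, and 5 up. Between the FAN groups 0 then rose in each, and 2, 2, 3 and 2 fell. All 5 T and NK, 4 neutrophil and 5 proliferating cell markers rose with ad libitum feeding. So did 4 of 5 myofibroblast and pericyte and 3 of 5 podocyte markers, while 3 erythroid markers fell. The part of these cell types in the subunit results was not tested. Testis markers summed to at most 0.158 CPM and muscle markers to at most 9.02 CPM in any library.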

How the data were processed

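Kidney mRNA of 16 libraries was available as 1 table of read counts per gene, raw as the authors deposited it, with 52338 genes. The submitters' processing notes list STAR 2.5.3a, FastQC 0.11.5 and edgeR 3.26.7, with mm10 as the build; the counting tool and strand setting are not given in the sources used here. Vehicle columns were matched to their labels by number. FAN columns were tied to their group only, because their numbers differ from the titles, so library numbers are those of the columns. Labels give separate samples without saying how they were raised, so p-values measure the spread between these samples, which may be technical.

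All 16 libraries were fitted together with edgeR 4.0.16 in R 4.3.3 (minimum count 10, TMM scaling, robust quasi-likelihood), with 5 contrasts, Benjamini-Hochberg adjustment over 17731 genes and a threshold of 0.05. Intervals of a difference are 95% and use the degrees of freedom of that fit; errors of a log2 change are standard errors, and the limit for a count of 0 (3 counts) covers counting error only. Coordinates, exonic lengths and overlaps came from GENCODE M21 on GRCm38. Alternatives were other scalings, limma 3.58.1, DESeq2 1.42.0, filters, covariates from the S numbers, a length correction and leaving out each library. The fit was tested on simulated data in which few genes changed, equally in both directions, in the FAN ad libitum libraries. Many more genes changed in the real data, so the simulation does not test the scaling.

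The members and gene lists were chosen with earlier results of these data known. Named were the highest member of each complex, those with the largest changes per complex (mean of at least 5 CPM), those moving against the majority, the 8 smallest p of the interaction, the 3 smallest p in vehicle, tissue variants, and list genes. Ndufb1, Ndufb2, Ndufs4, Ndufv1, Ndufv2, Ndufc2, Ndufa11, Ndufc1, Cox5a, Cox7b, Cox7c, Cox6a1, Uqcrc1, Uqcrc2, Cyc1, Atp5j and Atp5l are named outside that rule, after their values were seen. A member counted in the totals is not reported here by name.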

Additional observations from a re-analysis of the deposited data

Results flagged for a closer look

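In 6 of 184 groups of 4 libraries examined, 1 library lay further from the rest than Dixon's critical value at 95% allows; chance alone gives about 1 in 20 such groups. Sdha had 691.8 CPM in FAN time-restricted library 12, against 554.3 to 565.7 CPM in the others of its group, and the complex II sum of the same library was 1737 CPM, against 1495 to 1527 CPM. Atp5g1 had 260.5 CPM in vehicle time-restricted library 4, against 343.3 to 355.4 CPM, and the complex I sum of that library was 7687 CPM, against 8853 to 9065 CPM. Atp5g2 had 53.42 CPM in FAN ad libitum library 10, against 42.42 to 44.05 CPM, and the complex III sum of vehicle ad libitum library 4 was 3610 CPM, against 3134 to 3209 CPM.

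The FAN change differed between the feeding regimens, by the interaction test of edgeR, for 29 of the 38 named members, and each difference was positive, that is, less lowering under time restriction. Some of the 38 were named for the smallest p of this test or for large FAN changes, so the count is partly fixed by their choice; among all genes 7.76% were called in that direction and 1.4% in the other. In complex I the log2 difference was 1.31 for Ndufb6, 1.24 for Ndufa13, 1.09 for Ndufv3, 1.08 for Ndufb10, 1.05 for Ndufs6, 1.02 for Ndufa8, 1.003 for Ndufs7 and 0.90 for Ndufa9. In complex II it was 1.28 for Sdhb, 1.01 for Sdhc, 0.77 for Sdhd and 0.66 for Sdha, so that the iron-sulfur subunit differed most. In complex III it was 1.43 for Uqcrq, 1.24 for Uqcr11, 1.13 for Uqcrfs1 and 1.04 for Uqcr10, and it was 0.99 for Cycs. In complex IV it was 1.19 for Cox7a2, 1.19 for Ndufa4, 1.08 for Cox8a, 1.005 for Cox7a1, 0.99 for Cox5b and 0.93 for Cox6b1. In complex V it was 1.05 for Atp5k, 0.99 for Atp5mpl, 0.95 for Atp5d, 0.94 for Atp5g3, 0.82 for Atp5g1 and 0.75 for Atp5b. These values depend on the scaling, as the median difference of all genes was 0.02 with TMM and -0.57 with library totals.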

How the results depend on the processing

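The direction of the median was the same in all alternatives run, and the sizes depended mainly on the scaling. With library totals the median was -0.62 for FAN with ad libitum feeding, 0.45 between the FAN groups and 0.39 for the interaction, which then called 12 subunits against 63, and Atp5g2 turned sign between the FAN groups (-0.14). With the 3 runs of S numbers as a covariate, an alternative chosen after seeing the data, the median under time restriction was -0.62; the cause was not tested. Without each library in turn the subunits that fell numbered 79 to 80 with ad libitum feeding (medians -1.51 to -1.20) and 31 to 43 under time restriction (-0.45 to -0.36), those that rose between the FAN groups 77 to 80 (0.98 to 1.26), those called in vehicle 0 (0.12 to 0.20), and those called in the interaction 47 to 75 (0.85 to 1.11). DESeq2 called 79 and 46 subunits lower in FAN with ad libitum feeding and under time restriction. It called 78 higher between the FAN groups and 72 in the interaction. The length correction called 78, 42, 76 and 46, against 31.6%, 23.0%, 18.4% and 6.65% of all genes in these directions. Of the tests of named genes, 49 lost and 1887 kept their call without a library; the calls lost numbered 31 with library totals beside that of Atp5g2, 18 within the first run and 8 with the length correction.

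With the replicate block in vehicle no subunit was called and the median was 0.15. Vehicle libraries of the same number, 1 to 4, correlated at 0.18, 0.12, -0.15 and -0.01. The highest correlation with a library of another number was 0.08, 0.005, 0.32 and 0.13. These few correlations go both ways and do not settle whether the numbers pair the libraries. No block was fitted for FAN, since the numbers of its columns are not those of the labels. The totals, of 12450812 counts and more, limit the members under 1 CPM (Cox6a2, Cox6c2, Ndufb4c) most.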
